A study of Mus musculus with 6 samples.

Results

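The small ribosomal subunit assembly factors are the proteins that fold, modify, cut and escort the RNA of the small subunit before it can take part in translation. The genes were chosen by name, as the rows of the deposited expression table whose symbol equals 1 of 40 listed assembly factors. All 40 were found among 41079 listed genes, and all 40 were among the 12227 genes tested. D10 is a cloned mouse CD4+ helper T cell line. The cold-acclimated group held 3 libraries of D10 T cells kept at 26°C for 24 h, and the non-acclimated group held 3 libraries of D10 T cells kept at 37°C for 24 h. The labels give no other treatment for either group, and they name lymph node as the tissue. The comparison asks which transcripts differ after a stay in the cold that, in the study, preceded tests of motility at low temperature. The labels name the same cloned line for all libraries and describe the RNA extractions as independent batches, old and new, without saying which replicate belongs to which batch. The p-values measure the spread between these libraries, and whether all replicates come from the same stock of cells cannot be told from the labels.

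Ribosome production starts in the nucleolus, where RNA polymerase I transcribes a long precursor rRNA. A large particle called the small subunit processome assembles on the front part of that precursor around the U3 small nucleolar RNA, and its subcomplexes fold and cleave the RNA. The resulting precursor is then carried to the cytoplasm by pre-40S factors, which complete the last cut. Activated T cells are known for a strong rise in ribosome production before they divide. In the annotation deposited with the expression table, 34 of the 40 genes carried the term for the small subunit processome, 36 carried the term for the nucleolus, and 40 carried a term for small subunit biogenesis or rRNA processing.

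The promoters of 6 members held the E-box CACGTG, a motif that basic helix-loop-helix factors of the MYC family and others can bind. The 30 bases around each are printed because 5 of these 6 genes were among the 14 members called upregulated after median of ratios scaling, described below. Of these 5, only Wdr43 and Imp4 were also called on the TPM scale. The set of 14 was made from the measured levels, and no test was made of the counts. The E-box was in 15% of the members' promoters and in 10.5% of those of all tested protein-coding genes. Capitals mark the E-box, the strand is that of the gene, and the letters and positions are from GRCm39.
Wdr43, chr17:71923207-71923236, plus strand: tgcgcctgcgcccgggcgaaCACGTGgctg
Imp4, chr1:34478777-34478806, plus strand: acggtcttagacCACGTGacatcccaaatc
Dcaf13, chr15:38976256-38976285, plus strand: actctgcggagcCACGTGacaggaagcccg
Pno1, chr11:17161544-17161573, minus strand: cgcatgcgctgtacaaccacgCACGTGttc
Fbl, chr7:27869142-27869171, plus strand: cgcgcaggcgctcctttcCACGTGcgaaag
Nop56, chr2:130115791-130115820, plus strand: gccatgagcaacCACGTGgtgccgagcagc

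Counted from the annotated start of the canonical transcript, whose own base is 1, the E-box began at base 41 in Wdr43, at base 9 in Dcaf13, at base 42 in Pno1 and at base 39 in Fbl. It lay upstream in the other two, at base -143 in Imp4 and at base -32 in Nop56.

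The libraries held between 16899628 and 31290854 reads, recovered from the deposited values as described under processing, and each member rested on 285 to 16744 reads per library. Expression is given in TPM, a unit that divides reads by gene length and sets every library to the same total. Several T cell markers were high in every library, and the summed level of 13 T cell markers ran from 3612 to 5101 TPM. Cd4 itself, which the label of the cells names, separated the replicates. It stood at 1.09, 0.0351 and 310 TPM in non-acclimated replicates 1, 2 and 3, and at 1.30, 0.352 and 328 TPM in cold-acclimated replicates 1, 2 and 3. The defining marker was thus near 0 in replicates 1 and 2 of both conditions and present only in replicate 3. Thy1 was listed at 0 in all 6 libraries, and Cd5 was at 0 in 5 of them and at 0.0454 TPM in cold-acclimated replicate 3. The T cell receptor chain Cd3e ran from 476 to 874 TPM. Replicate 2 stood apart for 2 other markers. Cd3d was at 64.3 TPM at 37°C and 78.6 TPM at 26°C in replicate 2, against 240 to 332 TPM elsewhere. Cd28 was at 7.35 TPM at 37°C and 5.61 TPM at 26°C in replicate 2, against 27.9 to 54.5 TPM elsewhere. The 8 B cell markers summed to between 0.125 and 1.11 TPM. The 9 macrophage and monocyte markers summed to between 2.46 and 21.2 TPM, with Cd14, C1qa and C1qb at 0 in all libraries. Their sum was highest in replicate 3 of each condition, where it came mainly from Lyz2 and Cd68. Of the erythroid markers described here, Hbb-bs and Hbb-bt were at 0 in all libraries, whereas Hba-a1 ran from 60.8 to 485 TPM, again highest in replicate 3 of each condition. The part of these differences in the results below was not tested, and the main results are therefore also given without replicate 3.

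Cold-acclimated T cells had higher levels of 6 assembly factor genes and a lower level of 1. The upregulated genes were Wdr43, Utp4, Imp4, Nol6, Riok1 and Nop58, and the downregulated gene was Utp11. Calls came from limma on log2(TPM + 1), with a Benjamini-Hochberg adjusted p under 0.05 over all tested genes and a change of at least 1 in size on the log2 scale. This fit, and those that leave out libraries, did not pair the libraries by replicate number. Fits with that number as a block are given below. In percent, 2.63 of all tested genes were called upregulated and 16 were called downregulated, so that the members' 6 of 40 upward calls stood above the share of all genes and their 1 downward call stood below it. The other 33 members were not called. In GRCm39 the called genes lie at chr17:71923175-71966026 (Wdr43), chr8:107620272-107649726 (Utp4), chr1:34478951-34488437 (Imp4), chr4:41114427-41124450 (Nol6), chr13:38220965-38245409 (Riok1), chr1:59724165-59751352 (Nop58) and chr4:124571173-124587395 (Utp11), and all are annotated as protein-coding. The typical tested gene fell on this scale, with a median log2 fold change of -0.34 over all genes. The median of the members was 0.41, which is 0.74 above that of all genes, and 38 of the 40 members lay above the all-gene median. The exceptions were Utp11 and Ltv1. Expression values without overlap between the conditions, with all 3 cold-acclimated libraries above all 3 non-acclimated libraries, were found for 12 members, against 9.69% of all tested genes. The opposite pattern was found for 1 member, Utp11, against 31.4% of all tested genes. In these bulk samples, fewer cells of a type and less RNA per cell cannot be told apart.

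**Figure D1:**
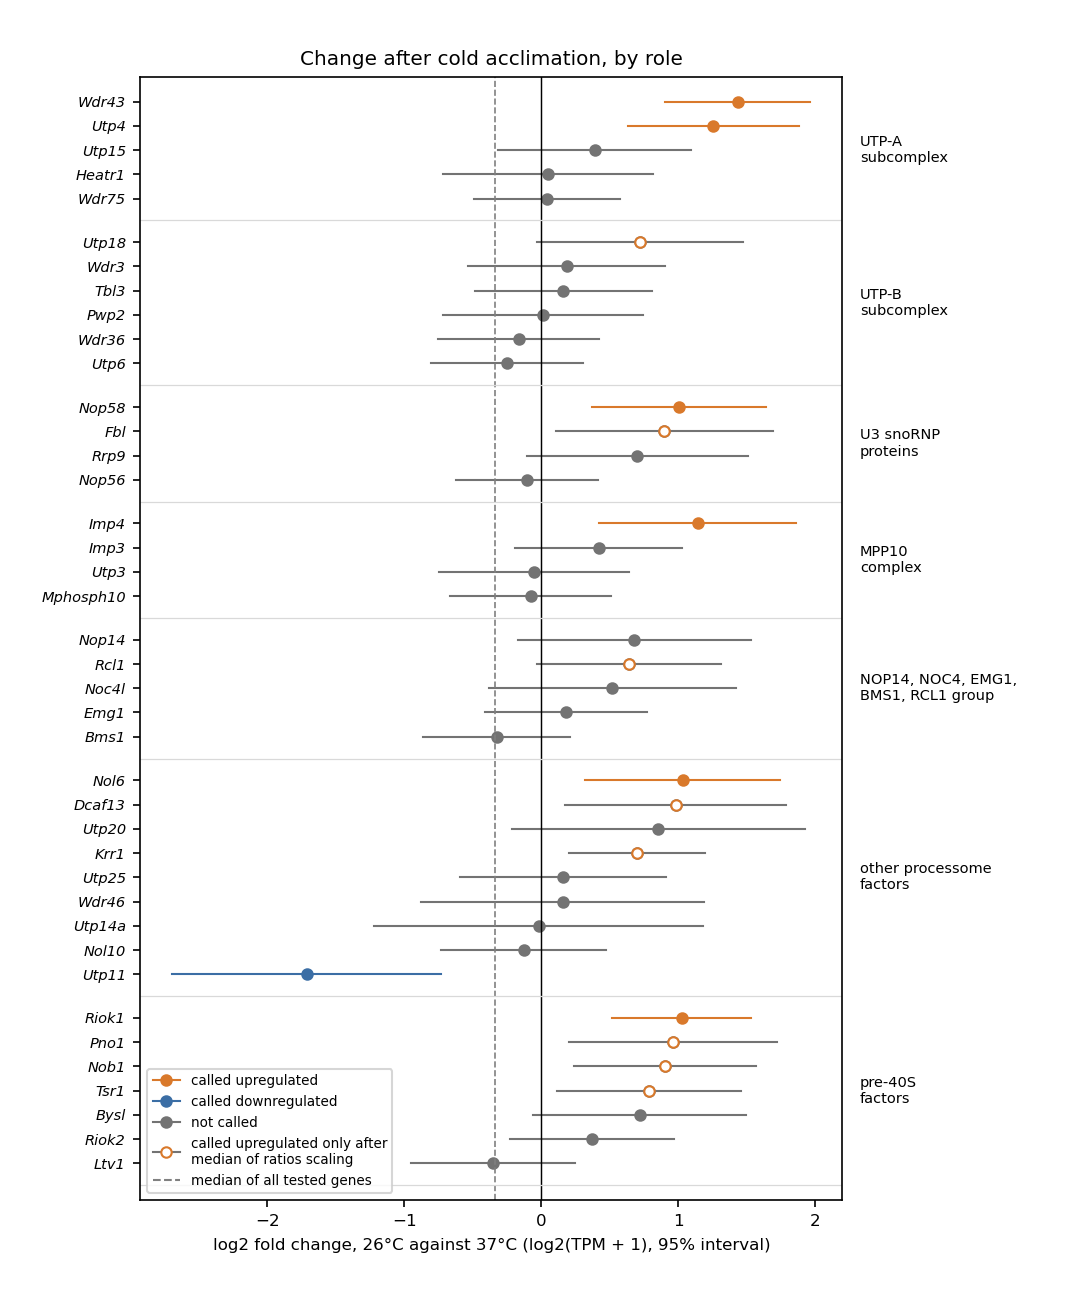
Log2 fold change of each of the 40 members at 26°C against 37°C on the log2(TPM + 1) scale (horizontal axis), grouped by role, with 95% intervals from limma. Filled orange points are the 6 upregulated genes, the blue point is Utp11, open points are genes not called on this scale but called after median of ratios scaling, and the dashed line at -0.34 is the median of all tested genes, which lies below 38 of the 40 points. All negative estimates other than that of Utp11 turn positive under that scaling.

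Because the typical gene moved on the TPM scale, the libraries were also set against each other by median of ratios scaling, which gives the typical gene the same level in every library. The median over all tested genes was then 0.03. After this scaling 14 members were upregulated and 0 were downregulated by the same limma test, against 6.87% and 8.6% of all tested genes. The count of members with an unadjusted p under 0.05 in this fit was 23 for higher and 1 for lower levels, against 18.6% and 18.2% of all tested genes. The 1 was Utp11, with a log2 fold change of -1.34 and a limma adjusted p of 0.0513. The 14 genes were the 6 named above with Utp18, Fbl, Rcl1, Krr1, Dcaf13, Nob1, Pno1 and Tsr1. The limma-voom test on the recovered reads also called 14 upregulated and 1 downregulated, against 6.48% and 8.93% of all tested genes. With the replicate number as a block in the limma fit, the count past both thresholds stayed at 6 upregulated and 1 downregulated. The shares of all tested genes past both thresholds rose from 2.63% and 16% to 3.75% and 21.9%. The count of members with a higher level and an adjusted p under 0.05, whatever the size of the change, went from 6 to 13 with the block. Over all tested genes the share of such genes went from 3.3% to 6.89%.

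Without the replicate 3 libraries of both conditions, whose Cd4 level differed from the rest, limma called 12 members upregulated and 1 downregulated, against 5.41% and 25.5% of the genes tested in those 4 libraries. All 6 genes listed first were among the 12, and Utp11 was the downregulated gene. The additional genes were Rrp9, Utp20, Nob1, Pno1, Tsr1 and Bysl, of which Rrp9, Utp20 and Bysl are named because of these values. The median of the members relative to all genes was 1.05 in this fit. With a single library left out, limma called 11 members upregulated without non-acclimated replicate 3, 6 without cold-acclimated replicate 3, and 1 without replicate 1 or replicate 2 of either condition. The shares of all tested genes called upregulated in those fits were 3.27%, 3.74%, and 0.486% to 0.644%, so calls were lost across all genes and not only among the members. Limma called 0 members without both replicate 1 libraries and 0 without both replicate 2 libraries, and limma-voom was not run there. In both fits 0% of all tested genes were called in either direction. At an unadjusted p under 0.05 the counts were 5 higher and 1 lower without replicate 1, against 3.27% and 16.5% of all genes, and 7 higher and 1 lower without replicate 2, against 3.13% and 15.1%.

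The UTP-A subcomplex is the first to bind the precursor rRNA and is linked to its transcription by RNA polymerase I. Of its 5 members, 2 were upregulated. Wdr43, on chromosome 17, was at 138, 191 and 172 TPM at 37°C and at 457, 503 and 392 TPM at 26°C. The lowest cold-acclimated library lay well above the highest non-acclimated one. Its mean rose from 167 ± 26.6 (SD, n = 3) to 451 ± 55.8 TPM (SD, n = 3), a log2 fold change of 1.43 with a standard error of 0.23 and a limma adjusted p of 0.00956. Wdr43 was the only one of the 7 called members whose limma call was kept whichever single library was left out. Utp4, the gene for the protein also called cirhin, was at 82.3, 107 and 130 TPM at 37°C and at 295, 273 and 197 TPM at 26°C. Its levels did not overlap either, and the nearest libraries were those of replicate 3. The log2 fold change of Utp4 was 1.26 with a standard error of 0.27 and a limma adjusted p of 0.0201. Its call was lost when replicate 1 or replicate 2 of either condition was left out, with adjusted p of 0.0674 to 0.083. At the other end was Wdr75, with 87.1, 103 and 120 TPM at 37°C and 117, 89.9 and 112 TPM at 26°C. Those ranges overlapped almost fully, and the log2 fold change was 0.04 with a standard error of 0.23. The remaining members, Utp15 and Heatr1, were not called.

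The UTP-B subcomplex binds the precursor after UTP-A and helps to position U3. Limma called 0 of its 6 members on the TPM scale, where 0 had an unadjusted p under 0.05, and 1 was called after median of ratios scaling and by limma-voom. That gene was Utp18, whose product recruits the exosome helicase, with 76.7, 92.3 and 169 TPM at 37°C and 159, 167 and 204 TPM at 26°C. The non-acclimated replicate 3 library lay within the cold-acclimated range. Its log2 fold change was 0.72 with a standard error of 0.32 and a limma adjusted p of 0.147 on the TPM scale, and 1.13 with an adjusted p of 0.0424 after scaling. Utp6 had the lowest estimate of this group, with 62.5, 82.3 and 96.2 TPM at 37°C and 60.6, 65.8 and 73.2 TPM at 26°C. Its log2 fold change of -0.25, with a standard error of 0.24, became 0.16 after scaling, and neither passed the test. The log2 fold changes of the group ran from -0.25 to 0.72, and its median relative to all genes was 0.43.

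The U3 snoRNP proteins bind the U3 RNA itself. Nop58, a scaffold of the box C/D particles, was upregulated, with 148, 199 and 240 TPM at 37°C and 320, 373 and 484 TPM at 26°C. In both conditions replicate 1 was lowest and replicate 3 highest, and the conditions did not overlap. The log2 fold change of Nop58 was 1.01 with a standard error of 0.27 and a limma adjusted p of 0.0396. This call was kept only without non-acclimated replicate 3, and the other 5 omissions of a single library gave adjusted p of 0.0612 to 0.115. Over all 6 omissions the log2 fold change ran from 0.82 to 1.17. Fbl, the RNA methyltransferase fibrillarin, reached the highest mean TPM of the 40 members. It was at 175, 375 and 391 TPM at 37°C and at 494, 565 and 596 TPM at 26°C, again without overlap. Its log2 fold change was 0.90 with a standard error of 0.34 and a limma adjusted p of 0.0969 on the TPM scale, and 1.31 with an adjusted p of 0.0335 after scaling. Nop56, the partner scaffold of Nop58, did not follow it. Its levels were 125, 137 and 154 TPM at 37°C and 148, 134 and 108 TPM at 26°C, with overlapping ranges and a log2 fold change of -0.10 with a standard error of 0.22, or 0.31 after scaling, where it did not pass either. Rrp9, the protein particular to U3, was not called in the fit of all 6 libraries.

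The MPP10 complex holds Imp3, Imp4 and Utp3 on Mphosph10 and supports the pairing of U3 with the precursor. Imp4 was at 34.2, 45.1 and 73.4 TPM at 37°C and at 123, 98.1 and 104 TPM at 26°C. All cold-acclimated libraries lay above the highest non-acclimated library, which was replicate 3. The log2 fold change of Imp4 was 1.14 with a standard error of 0.31 and a limma adjusted p of 0.0387, and the call was lost when replicate 1 or replicate 2 of either condition was left out, with adjusted p of 0.0961 to 0.132. Mphosph10, which carries the complex, was at 70.1, 117 and 87.8 TPM at 37°C and at 84.4, 93.2 and 78 TPM at 26°C. Its non-acclimated libraries spread more widely than the cold-acclimated ones and enclosed them, and its log2 fold change was -0.08 with a standard error of 0.25, or 0.33 after scaling without passing the test. Imp3 and Utp3 were not called under either scaling.

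Nop14, Noc4l, Emg1, Bms1 and Rcl1 join the processome with the later domains of the small subunit. Limma called 0 of these 5 on the TPM scale, where 0 had an unadjusted p under 0.05, and Rcl1 was called after scaling and by limma-voom. Rcl1, the cyclase-like partner of the GTPase Bms1, was at 25.5, 34 and 51.8 TPM at 37°C and at 58.6, 55.9 and 53.7 TPM at 26°C. The conditions did not overlap, although non-acclimated replicate 3 came close to the cold-acclimated libraries. Its log2 fold change was 0.64 with a standard error of 0.29 and a limma adjusted p of 0.149 on the TPM scale, and 1.04 with an adjusted p of 0.0429 after scaling. Nop14 had the highest estimate of the group on the TPM scale, with 64.9, 98 and 152 TPM at 37°C and 125, 145 and 222 TPM at 26°C. Its replicates ranked the same way in both conditions, and its log2 fold change of 0.68 with a standard error of 0.37 did not pass the test. With the replicate number as a block its limma adjusted p was 0.0355 at the same size, under the size threshold, and with the block and scaling together it was called, at 1.09 with 0.0135. Bms1 was at 55.7, 78.9 and 80 TPM at 37°C and at 55.5, 54.3 and 58.9 TPM at 26°C, with a log2 fold change of -0.32 and a standard error of 0.23, or 0.08 after scaling. Neither estimate passed.

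The 9 other processome factors held both the strongest fall and a called rise. Utp11, a conserved protein of the processome, was the only downregulated member. It was at 18.7, 24.4 and 27.7 TPM at 37°C and at 4.50, 4.24 and 13.2 TPM at 26°C. All cold-acclimated libraries lay below all non-acclimated ones, and the least reduced was replicate 3. The mean fell from 23.6 ± 4.59 (SD, n = 3) to 7.32 ± 5.11 TPM (SD, n = 3), a log2 fold change of -1.71 with a standard error of 0.42 and a limma adjusted p of 0.0298. The call was kept only without cold-acclimated replicate 3, and the other 5 omissions gave adjusted p of 0.0672 to 0.106. The length behind the TPM of Utp11 was 7470 bases, which is 4.66 times the 1603 bases of its canonical transcript, so its level is not comparable with that of other genes and which of those bases the reads came from cannot be told from these values. Nol6, the Utp22 protein of the processome, was at 43.8, 59.3 and 93.5 TPM at 37°C and at 134, 114 and 140 TPM at 26°C. The conditions did not overlap. Its log2 fold change was 1.03 with a standard error of 0.30 and a limma adjusted p of 0.04999, a value just under the threshold. Of the 6 omissions of a single library, the call was kept only without non-acclimated replicate 3.

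Krr1 and Dcaf13 were not called on the TPM scale with all 6 libraries, and were called after scaling and by limma-voom. Krr1, a processome protein with an RNA-binding KH domain, was at 87.7, 65.4 and 78.7 TPM at 37°C and at 120, 130 and 126 TPM at 26°C. The conditions did not overlap. Its estimate was a log2 fold change of 0.70 with a standard error of 0.21 and a limma adjusted p of 0.0541. After scaling the log2 fold change of Krr1 was 1.11 with an adjusted p of 0.02. Dcaf13, the Sof1 protein, was at 88.8, 92.8 and 150 TPM at 37°C and at 201, 149 and 321 TPM at 26°C. The ranges touched, since cold-acclimated replicate 2 fell just below non-acclimated replicate 3. Its log2 fold change was 0.98 with a standard error of 0.35 and a limma adjusted p of 0.0813, and 1.39 with an adjusted p of 0.0274 after scaling. The other members of the group, Utp14a, Utp20, Utp25, Wdr46 and Nol10, were not called under either scaling.

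Pre-40S factors act on the particle after the processome has come apart. Riok1, an atypical kinase that acts in the last cytoplasmic steps, was at 23.1, 21.7 and 27.6 TPM at 37°C and at 52.5, 45.8 and 51.6 TPM at 26°C. The libraries of each condition lay close together and did not overlap with the other. The log2 fold change of Riok1 was 1.02 with a standard error of 0.22 and a limma adjusted p of 0.0198, and the call was lost when replicate 1 or replicate 2 of either condition was left out, with adjusted p of 0.062 to 0.0893. After scaling Nob1, Pno1 and Tsr1 were upregulated as well. Nob1, the endonuclease that makes the last cut, was at 95.4, 175 and 157 TPM at 37°C and at 272, 290 and 220 TPM at 26°C. Pno1, the partner of Nob1, was at 82.8, 133 and 191 TPM at 37°C and at 284, 218 and 253 TPM at 26°C. Tsr1, a GTPase-like protein, was at 72.8, 108 and 148 TPM at 37°C and at 186, 192 and 170 TPM at 26°C. None of the 3 genes overlapped between the conditions, and in each the lowest library was non-acclimated replicate 1. Their log2 fold changes on the TPM scale were 0.90, 0.96 and 0.79, and their standard errors were 0.29, 0.33 and 0.29. The limma adjusted p were 0.0604, 0.0727 and 0.0898. After scaling the log2 fold changes of Nob1, Pno1 and Tsr1 were 1.32, 1.37 and 1.20, with limma adjusted p of 0.0247, 0.0284 and 0.0307. Ltv1, which leaves the particle late in its maturation, had the lowest estimate of the group. It was at 46.6, 60.3 and 71.7 TPM at 37°C and at 40.1, 42.6 and 55.8 TPM at 26°C, with a log2 fold change of -0.35 and a standard error of 0.26, or 0.05 after scaling, and passed under neither.

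**Figure D2:**
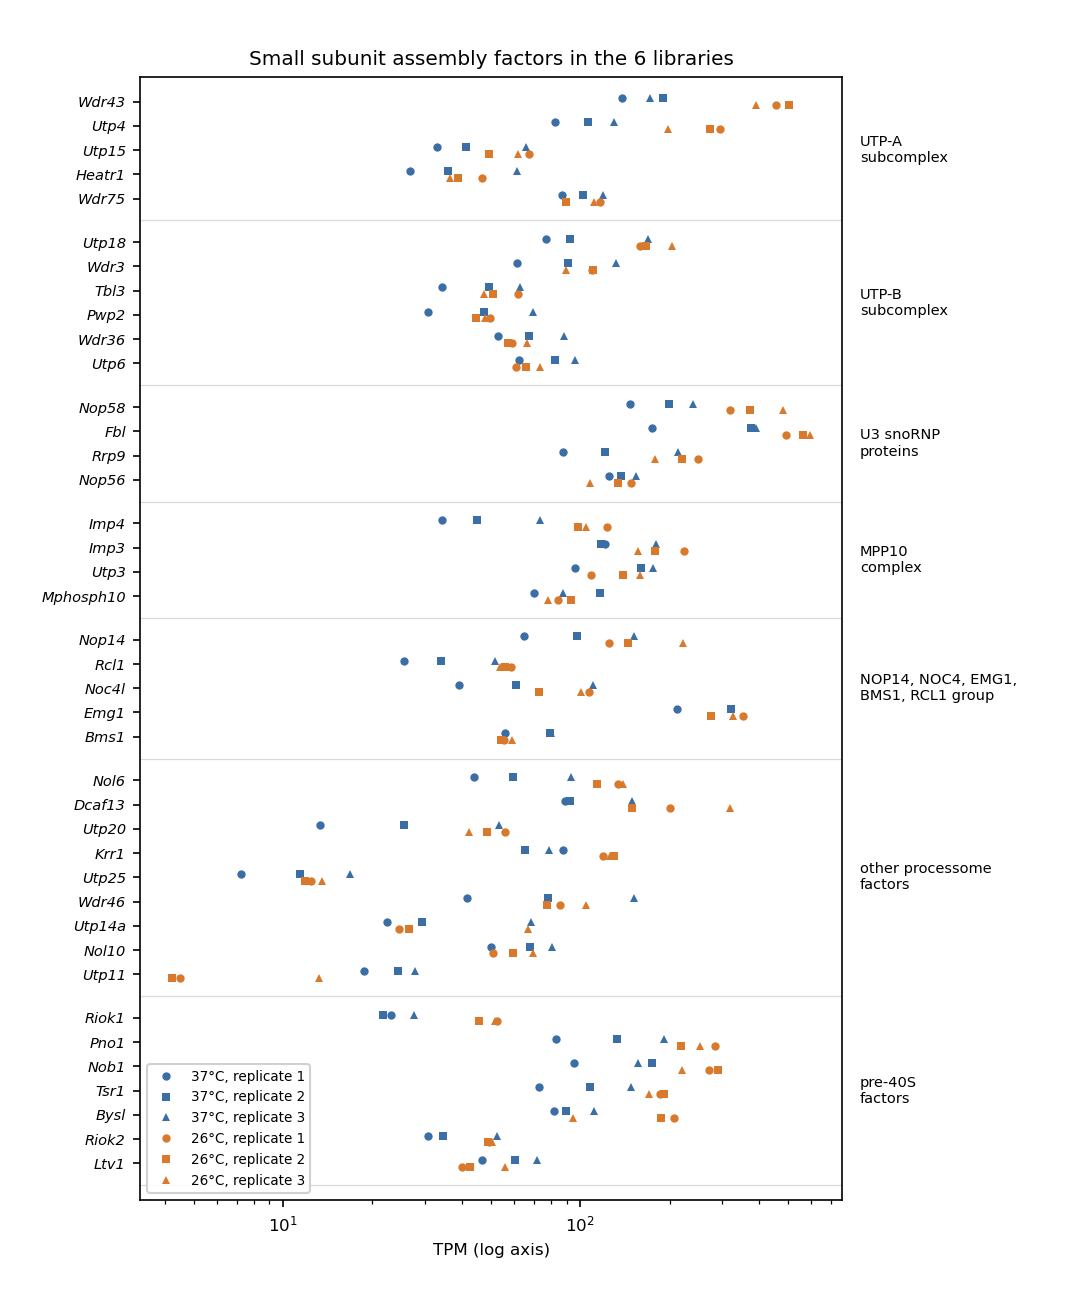
TPM of each member in the 6 libraries (log axis), grouped by role, with 37°C in blue and 26°C in orange and the replicate number shown by the shape of the point. The orange points lie closer together than the blue ones in most rows, and in 33 of 40 rows the blue circle is lowest and the blue triangle highest.

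In each of the 7 role groups the median change was greater than that over all genes. Medians relative to all genes were highest in the U3 snoRNP proteins, at 1.14, and in the pre-40S factors, at 1.12. They were 0.86 in the Nop14, Noc4l, Emg1, Bms1 and Rcl1 group, 0.73 in UTP-A, 0.52 in the MPP10 complex, 0.50 in the other processome factors and 0.43 in UTP-B. Wdr43 and Wdr75 in UTP-A, Nop58 and Nop56 in the U3 particle, and Imp4 and Mphosph10 in the MPP10 complex each paired a called gene with a gene whose conditions overlapped, and no test of the difference between partners was run.

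The members varied mainly among the non-acclimated libraries. Their summed level was 2746, 3850 and 4882 TPM in non-acclimated replicates 1, 2 and 3 and 5714, 5501 and 5747 TPM in cold-acclimated replicates 1, 2 and 3. The cold-acclimated sums lay close together and above all non-acclimated ones. The median level of the members did not separate the conditions in this way. It was 61.8, 80.6 and 103.3 TPM in non-acclimated replicates 1, 2 and 3. In cold-acclimated replicates 1, 2 and 3 it was 109.4, 95.7 and 102.6 TPM. At 37°C the lowest library was replicate 1 for 37 of the 40 members and the highest was replicate 3 for 35. Both held for 33 of 40, compared with 26.1% of all tested genes. The recovered reads at 37°C ran in the same order, at 16899628, 21462543 and 31290854 in replicates 1, 2 and 3. At 26°C they were 19605883, 20579363 and 25169484. The part of depth was not tested. The median standard deviation between libraries on the log2(TPM + 1) scale was 0.44 for the members at 37°C and 0.19 at 26°C. Over all tested genes the corresponding values were 0.34 and 0.37, so the wider spread at 37°C was not a property of all genes. The standard deviation was larger at 37°C for 36 of 40 members and for 46.4% of all tested genes.

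**Figure D3:**
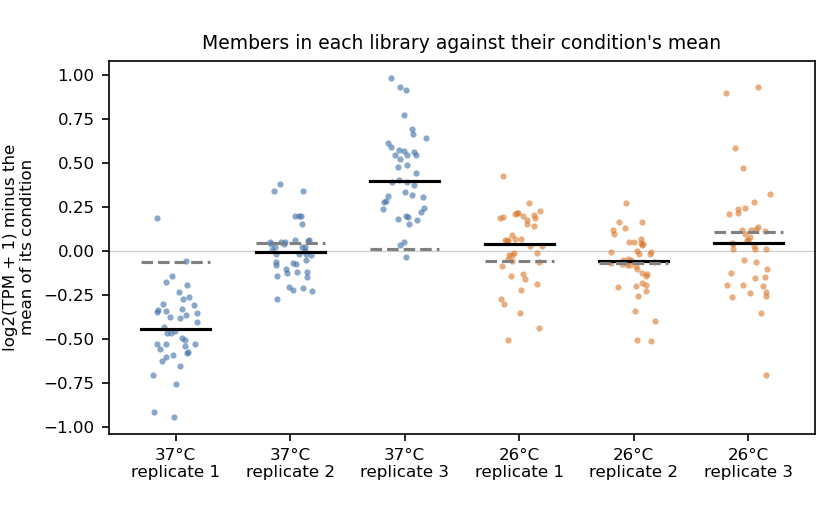
Deviation of each member from the mean of its condition on the log2(TPM + 1) scale, by library. Each point is a gene, solid lines are the medians of the 40 members and dashed lines the medians of all tested genes. The member medians at 37°C run from -0.44 in replicate 1 to 0.40 in replicate 3, and those at 26°C from -0.06 to 0.05.

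The difference between conditions accordingly varied with the replicate number, which was not tested. The members' median log2 fold change between libraries of the same number was 0.90 in replicate 1, 0.39 in replicate 2 and -0.11 in replicate 3. Relative to all tested genes these medians were 1.22, 0.83 and 0.13. The number of members with a higher level at 26°C was 36 of 40 in replicate 1, 26 of 40 in replicate 2 and 16 of 40 in replicate 3, compared with 35.7%, 32% and 35.4% of all tested genes. Replicate 3 thus showed a member share close to that of all genes. Members higher in all 3 comparisons numbered 15 and members lower in all 3 numbered 4, compared with 18.2% and 47.9% of all tested genes.

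**Figure D4:**
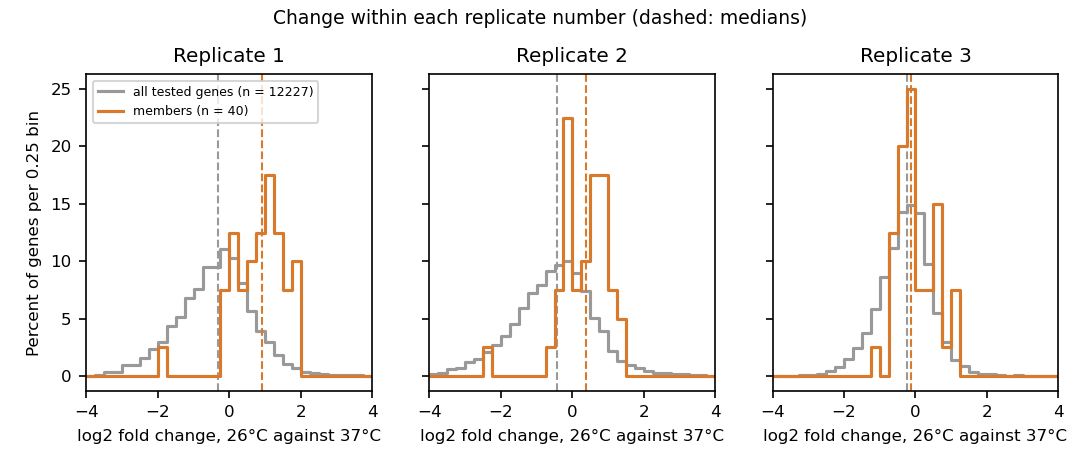
Distribution of log2 fold changes between the 26°C and 37°C libraries of the same replicate number for the 40 members (orange) and all 12227 tested genes (grey), as percent of genes per bin. Dashed lines are medians, and the distance between them narrows from 1.22 in replicate 1 and 0.83 in replicate 2 to 0.13 in replicate 3.

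Proliferation markers also differed least between the conditions in replicate 3. The 10 markers, among them Mki67 and Top2a, summed to 2399, 2563 and 2583 TPM at 37°C and to 803, 486 and 2203 TPM at 26°C. The sum was thus lower at 26°C in replicates 1 and 2 and less so in replicate 3, where the assembly factors also differed least. The markers went both ways in replicate 3. There Mki67 went from 163 to 173 TPM, Ccnb1 from 166 to 261 TPM and Cdk1 from 89.3 to 130 TPM. All other listed proliferation markers were lower at 26°C in replicate 3. Of the 10, limma called 3 downregulated on the TPM scale, and 6 with the replicate number as a block, against 16% and 21.9% of all tested genes. Cd4, Hba-a1 and the macrophage markers Lyz2 and Cd68 were highest in replicate 3 of both conditions. Their part in the difference between replicates was not tested.

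Other genes of the pathway were taken from lists that share no gene with the 40 members. Of 30 other small subunit assembly factors, limma called 1 upregulated and 0 downregulated on the TPM scale, and 5 and 0 after scaling, with a median of 0.63 relative to all genes. Of all tested genes, 2.63% and 16% were called on the TPM scale, and 6.87% and 8.6% after scaling. The 1 upward call of 30 on the TPM scale was thus close to the share of all genes. The called gene was Aatf, a nucleolar processome subunit, at 6.17, 9.79 and 10.8 TPM at 37°C and 17.7, 21.1 and 17.6 TPM at 26°C, with a log2 fold change of 1.03 and a limma adjusted p of 0.0387. Dnttip2, another processome protein, had a log2 fold change of 0.95 with a limma adjusted p of 0.0351 and missed the threshold on size. Snu13, which binds the U3 RNA with the proteins above, had a log2 fold change of 0.19 with a limma adjusted p of 0.753. Nol11, a vertebrate subunit of UTP-A, had 0.64 with 0.135, and was called after scaling at 1.05 with 0.036.

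Of 53 large subunit assembly factors, limma called 8 upregulated and 1 downregulated on the TPM scale, and 24 and 0 after scaling, with a median of 0.96 relative to all genes. The shares of all tested genes were 2.63% and 16% on the TPM scale, and 6.87% and 8.6% after scaling. Nmd3, the export adaptor of the large subunit, was at 74.4, 73.6 and 80.5 TPM at 37°C and at 256, 233 and 214 TPM at 26°C. Tma16, a large subunit assembly protein, was at 26.4, 46.9 and 51.4 TPM at 37°C and at 167, 180 and 106 TPM at 26°C. Both rose without overlap, with log2 fold changes of 1.61 for Nmd3 and 1.85 for Tma16 and limma adjusted p of 0.00697 and 0.0128. The summed level of this list was lowest in non-acclimated replicate 1, at 3583 TPM, and highest at 37°C in replicate 3, at 6770 TPM, with 7797 to 8170 TPM at 26°C. At 37°C this is the same order of libraries as for the small subunit factors.

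The 33 small subunit ribosomal proteins showed another order. Limma called 0 under either scaling and limma-voom called 0, while 0 had an unadjusted p under 0.05 on the TPM scale and 18, all higher, had one after scaling. At that unadjusted p, 7.75% of all tested genes were higher on the TPM scale and 18.6% after scaling. The median of these proteins was 0.74 relative to all genes. The smallest p values were those of Rps25 and Rps10, with limma adjusted p of 0.149 and 0.186 on the TPM scale and 0.0459 and 0.0568 after scaling, and log2 fold changes of 0.50 and 0.47 that rose to 0.91 and 0.88. At 37°C their summed level was 68560, 54831 and 53657 TPM in replicates 1, 2 and 3, so that replicate 1 was highest here and lowest for the assembly factors. At 26°C the sums were 85022, 89432 and 58500 TPM.

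Of 20 genes of RNA polymerase I and its factors, limma called 1 upregulated and 1 downregulated on the TPM scale, and 2 and 1 after scaling, with a median of 0.31 relative to all genes. The shares of all tested genes were 2.63% and 16% on the TPM scale, and 6.87% and 8.6% after scaling. Ttf1, the factor that ends polymerase I transcription, was at 35.1, 32.8 and 25 TPM at 37°C and at 3.87, 4.99 and 7.12 TPM at 26°C. It fell in all replicates, with a log2 fold change of -2.35, a standard error of 0.29 and a limma adjusted p of 0.00697. Taf1d, a subunit of the promoter factor of polymerase I, rose from 52.3, 53.7 and 54 TPM to 112, 136 and 89.8 TPM, with a log2 fold change of 1.04 and a limma adjusted p of 0.0214.

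Several members carry small nucleolar RNA genes in their introns, and 13 such genes lay inside 4 members, Nop56, Nop58, Tsr1 and Wdr43, on the same strand. Small nucleolar RNAs guide the chemical modification of rRNA and other RNAs, and the mature molecules have no poly(A) tail, whereas the libraries were made from poly(A) RNA. They rested on 0 to 66 reads per library, so these values are less certain than those of the hosts. Inside Nop56, whose own level did not pass the test, limma called Gm24451, Snord110 and Gm23650 upregulated. Nested genes were also called upregulated in hosts that rose, namely Snord70 inside Nop58 and Gm22858 and Snord53 inside Wdr43. Of all tested genes, 2.63% were called upregulated on this scale. The nested genes Snord57, Gm26287, Snord11 and Snord91a were tested and not called. Gm23187, Gm26293 and Snord92 did not pass the filter on low values. Snord110 and Gm23650 are printed as the examples of nested genes that rose in a host that did not, from GRCm39, with the last CTGA, the letters of box D, in capitals.
Snord110, chr2:130117435-130117493, plus strand: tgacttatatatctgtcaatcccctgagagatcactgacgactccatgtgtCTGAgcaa
Gm23650, chr2:130119617-130119686, plus strand: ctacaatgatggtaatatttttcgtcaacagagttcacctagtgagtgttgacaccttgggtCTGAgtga

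Snord110 was at 2.47, 2.06 and 12.7 TPM at 37°C and at 17.6, 35.8 and 24.9 TPM at 26°C, from 1, 1 and 9 reads and 9, 19 and 15 reads. Gm23650 was at 33.3, 27.8 and 23.7 TPM at 37°C, from 8, 8 and 10 reads, and at 155, 121 and 47.6 TPM at 26°C, from 47, 38 and 17 reads. Neither gene overlapped between the conditions. Their log2 fold changes were 2.31 and 1.75 with limma adjusted p of 0.0326 and 0.0302, and that of Gm24451 was 3.20 with 0.0211. The difference between these genes and Nop56 itself was not tested. Inside Wdr43, whose own level rose, Snord53 was at 0 in all 3 libraries at 37°C and at 13.6, 19.6 and 15.8 TPM at 26°C, from 8, 12 and 11 reads. Gm22858 was also at 0 in all 3 libraries at 37°C, and rested on 5, 2 and 3 reads at 26°C. Both reached the mean TPM of 1 needed for the test only through their 26°C values. Snord70 inside Nop58 had a log2 fold change of 2.42 with a limma adjusted p of 0.04999. It rested on 2, 0 and 1 reads at 37°C and on 3, 6 and 13 reads at 26°C.

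RNAs of the processome and of RNase MRP were little captured, since 5 of the 10 listed passed the filter on low values and 3 were at 0 in every library. Limma called 0 on the TPM scale, where 1 was higher and 1 lower at an unadjusted p under 0.05, against 7.75% and 30% of all tested genes. Limma-voom called 0, and limma called 1 upregulated after scaling, against 6.87% of all tested genes. That gene was Snord14a, at 5.03, 12.6 and 6.69 TPM at 37°C and 29.2, 39.6 and 12.4 TPM at 26°C, with a log2 fold change of 1.57 and a limma adjusted p of 0.0554, or 1.95 with 0.0384 after scaling. Snord14d was at 3.35, 4.20 and 11.5 TPM at 37°C and at 0, 1.28 and 3.38 TPM at 26°C, with a log2 fold change of -1.61 and a limma adjusted p of 0.1. With the replicate number as a block both passed the test on the TPM scale, Snord14a higher with a limma adjusted p of 0.0135 and Snord14d lower with 0.00963.

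Promoters were read from 250 bases before to 50 bases after the start of the canonical transcript and searched on both strands. The E-box CACGTG was found in 6 of 40 members, or 15%, and in 10.5% of the 10342 promoters of tested protein-coding genes. Of the 14 members upregulated after scaling it was found in 5, and of the 26 other members in 1, the gene Nop56. These sets were made from the measured levels, and no test was made of the counts. With the gene starts of the deposited table in place of the canonical ones, which differ by more than 100 bases in 7 members, the E-box was found in 6 of 14 and 2 of 26. The letters CCGGAAG, bound by factors of the ETS family, were found in 14 of 40 members, or 35%, compared with 17.6% of all these promoters, and in 3 of the 14 and 11 of the 26. The CCAAT letters were found in 18 of 40, or 45%, compared with 40% of all, and in 4 of the 14 and 14 of the 26. None of the motifs shares its letters with another in full, and a match of letters is not evidence of binding.

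Some values carry limits of counting. The length behind the TPM was at least 2 times that of the canonical transcript in 3 members, Utp11, Nop56 and Rcl1. It was far shorter than that transcript in Nop58, at 0.31 times, in Tbl3, at 0.48 times, and in Wdr3, at 0.50 times. The levels of all these members cannot be ranked against other genes. A gene on the opposite strand overlapped 11 members, in 7 of them a protein-coding gene. The strand setting of the counting is not given in the sources used here, so reads of such partners may not have been separated. Utp14a and Fbl have close copies, Utp14b and Fbll1, which could share reads with them.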

How the data were processed

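D10 T cells were measured in 6 libraries, 3 per condition, made from poly(A) RNA with a directional kit. The values are TPM as deposited by the authors. The submitters' processing notes name FastQC 0.11.7, Trimmomatic 0.38, HISAT2 2.1.0, featureCounts 1.6.3 and GRCm39; for the annotation release, the strand setting and the step from counts to TPM the answer is "not given in the sources used here". The reads behind each gene were found as the whole numbers that share 1 step in its TPM values, and all 21195 genes above 0 came out whole within 1e-06 reads.

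Genes whose mean TPM reached 1 were tested with limma 3.58.1 in R 4.3.3, with a mean-variance trend, on log2(TPM + 1). The pseudocount understates changes of low genes. Calls needed a Benjamini-Hochberg adjusted p under 0.05 over all tested genes and a change of at least 1 in size on the log2 scale. Alternatives were a pseudocount of 0.1, no filter, median of ratios scaling, quantile normalization, limma-voom on recovered reads, the replicate number as a block, and omission of libraries. Omitting both libraries of a replicate number, and the block with scaling, were added after the data were seen.

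Replicate numbers come from the sample titles. Deviations from the condition means correlated across genes at 0.48, 0.50 and 0.51 between libraries of the same number, and at -0.41 to 0.02 between other libraries, so the numbers pair the libraries. The members and lists were chosen with earlier results of these data known, and the lists were written from general knowledge. Values in every library are given for members called under either scaling and for the highest and lowest member of each role; from each list the 2 genes with the smallest p are named, with Snu13 and Nol11. Scripts were tested on simulated data. Python 3.11.15, numpy 2.4.6, pandas 2.3.3, pysam 0.24.0 and matplotlib 3.10.9 were used. Promoter starts and sequences were taken from the GENCODE annotation and the genome of GRCm39.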

Additional observations from a re-analysis of the deposited data

How the results depend on the processing

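The members' median relative to all genes kept its sign under every alternative run, from 0.47 with no filter on low values to 1.05 without both replicate 3 libraries. The number of upregulated members was 14 after median of ratios scaling and by limma-voom, 15 with the replicate block and median of ratios scaling together, Nop14 being the one added, and 3 with no filter. The shares of all tested genes called upregulated were 6.87% after the scaling, 6.48% by limma-voom and 9.23% with block and scaling. With no filter the share was 0.868% of 21195 genes. The number of upregulated members ran from 0 to 12 when a library or both libraries of a number were left out. The shares of all tested genes in those fits ran from 0% to 5.41%. The member number was 1 without cold-acclimated replicate 1 or 2 or without non-acclimated replicate 1 or 2, 11 without non-acclimated replicate 3, and 0 without both libraries of replicate 1 or of replicate 2. The number of downregulated members was 0 with no filter, after median of ratios scaling and after quantile normalization, against 5.29%, 8.6% and 6.26% of all tested genes. It ran from 0 to 1 when libraries were left out, against 0% to 25.5%. With the replicate block alone the counts were 6 and 1, against 3.75% and 21.9% of all tested genes. The block changed no call of a member, while of the other genes named it added Snord14a and Snord14d. With the block and the scaling together Utp11 was the only member called downregulated, at -1.34, against 12.4% of all tested genes.

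Among single genes that were not called, the sign turned for Utp6 (0.16), Nop56 (0.31), Mphosph10 (0.33), Bms1 (0.084) and Ltv1 (0.053) after median of ratios scaling, with or without the replicate block. After this scaling it also turned for Wdr36 (0.24), Utp3 (0.36), Utp14a (0.38) and Nol10 (0.28). By limma-voom the values were 0.16 for Utp6, 0.32 for Nop56, 0.33 for Mphosph10, 0.083 for Bms1 and 0.045 for Ltv1, and after quantile normalization Mphosph10 was at 0.11. With 1 library left out, Wdr75 ran from -0.071 to 0.16, Nop56 from -0.20 to 0.025, Mphosph10 from -0.25 to 0.11, and Snu13 from -0.13 to 0.57. Without both libraries of a number, Wdr75 turned to -0.14 and Snu13 to -0.14 (replicate 1), Mphosph10 to 0.048 (replicate 2) and Nop56 to 0.10 (replicate 3). With 3 libraries per condition and 2 where a number was left out, calls near the threshold depend on single libraries. The causes were not tested.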
